A study of Mus musculus with 36 samples.

Results

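Class I olfactory receptor genes were described here as the genes named Olfr plus digits, pseudogene symbols left out, whose locus lies between 109.0 and 112.5 Mb of chromosome 7 in the mouse build mm9. This rule found 123 of the 24634 genes that had a value in the main olfactory epithelium (MOE). The first member was Olfr543, from 109625287, and the last was Olfr691, which ended at 112486228, so that the members spanned 2.86 Mb. The nearest Olfr gene outside, Olfr692, lay 16.8 kb past the end of the interval, had a mean of 0.0652 FPKM in MOE and was not counted.

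RNA-seq was performed on 36 libraries of C57BL/6 mice, with 12 libraries each from MOE, the vomeronasal organ (VNO) and the olfactory bulb (OB). Per the paper, all of these tissues were taken from each mouse, so that the tissues do not come from separate animals. Each tissue had 4 groups of 3 libraries. SF and SM came from females and males of the sex-separated cages, and CF and CM from females and males of the sex-combined cages. The mice were weaned at 3 weeks and kept in cages of a single sex, or of both sexes, until tissue was taken at 6 months. At weaning, the sex-separated cages were moved to rooms that held mice of that sex only, so that SF and SM also differed in room. Litters born in sex-combined cages were killed within a day of birth. Housing thus goes together with room and with breeding, and these cannot be told apart here. Each library was made from the pooled RNA of several mice, for which the labels and the methods give different numbers, so that the spread between replicates is that between pools of animals. No mouse carried a transgene or received a treatment as far as the labels state, and males and females of the sex-combined groups had lived in the same kind of cage. Levels are given as FPKM, fragment numbers divided by annotated transcript length and by the size of the library. Because length is divided out, FPKM can be compared between genes, but only as far as the annotated transcripts are those expressed.

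Class I receptors are G protein-coupled odorant receptors of the group that resembles the receptors of fish, and many of them are known to respond to carboxylic acids and other hydrophilic odorants. A mature olfactory sensory neuron transcribes a single allele of a single receptor gene, so that the level of a receptor in whole tissue reflects the number of neurons that chose it as well as the RNA in each of them, and these cannot be told apart in bulk libraries. Class I genes form a single cluster around the beta globin genes, are chosen mostly by neurons of the dorsal MOE, and are known to depend on a long-range enhancer called the J element.

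The tissue labels were checked against marker genes. The summed level of 6 markers of olfactory sensory neurons (Omp, Cnga2, Gnal, Adcy3, Stoml3 and Gng13) lay between 1495 and 2675 FPKM in MOE, between 106 and 167 in VNO and between 93.6 and 135 in OB, while 5 bulb neuron markers were each highest in OB. The summed level of 4 vomeronasal markers was highest in VNO (52.0 to 70.1 FPKM, against 11.1 to 14.2 in OB and 3.40 to 6.49 in MOE), although one of them, Gnao1, was highest in OB. Estimated fragments on all transcripts lay between 3015430 and 5866060 per MOE library. The lowest of these was CM replicate 3, in which the summed class I level, the summed level of the other Olfr genes (881 FPKM), Omp (638 FPKM) and Cnga2 (131 FPKM) were also the lowest of the 12, and the main counts and medians of the MOE comparisons are given below with and without it.

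Some members are so similar that short reads cannot always be assigned to one of them. Of 121 members with a coding sequence in GENCODE M21, 67 shared at least 1 word of 50 bases, the length of a read, with another gene, 38 shared at least 20% of their words and 7 at least 50%. The most similar pair of equal length was Olfr596 (chr7:110458237-110459175, mm9) and Olfr603 (chr7:110531576-110532514), which differed at 5 of 939 coding bases, an identity of 99.5%. Next came Olfr679 and Olfr681, with 14 differences over 948 bases (98.5%), and Olfr597 and Olfr598, with 19 differences over 960 bases (98.0%). For these pairs, the stretch of the coding strand with the most differences is shown because it marks the bases by which reads can be told apart. Capitals mark bases that differ within a pair, and positions are counted from the start codon, from 361 to 480 for the first pair, from 313 to 432 for Olfr597 and Olfr598, and from 556 to 675 for Olfr679 and Olfr681. The stretches shown hold 2, 5 and 6 differing bases.
Olfr596: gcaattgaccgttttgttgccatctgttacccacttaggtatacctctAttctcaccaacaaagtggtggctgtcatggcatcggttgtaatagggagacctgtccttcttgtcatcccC
Olfr603: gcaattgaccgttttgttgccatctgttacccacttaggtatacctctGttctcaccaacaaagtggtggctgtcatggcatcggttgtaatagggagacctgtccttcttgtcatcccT
Olfr597: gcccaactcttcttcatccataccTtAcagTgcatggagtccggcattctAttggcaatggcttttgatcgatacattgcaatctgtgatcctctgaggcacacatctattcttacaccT
Olfr598: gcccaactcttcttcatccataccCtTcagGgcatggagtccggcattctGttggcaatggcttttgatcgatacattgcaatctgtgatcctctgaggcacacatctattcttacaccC
Olfr679: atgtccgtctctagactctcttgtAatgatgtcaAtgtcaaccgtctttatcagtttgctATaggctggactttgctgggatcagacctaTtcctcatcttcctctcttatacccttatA
Olfr681: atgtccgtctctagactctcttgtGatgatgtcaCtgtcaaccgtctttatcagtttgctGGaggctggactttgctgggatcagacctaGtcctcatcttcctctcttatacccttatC
Olfr603 was listed at 0 in all 36 libraries, while Olfr596 had a mean of 0.174 FPKM in MOE. Olfr597 and Olfr598 had 1.22 ± 0.362 and 3.24 ± 0.808 FPKM (SD, n = 12), and Olfr679 and Olfr681 had 0.142 ± 0.0820 and 0.612 ± 0.228. Olfr688, which was listed at 0 in MOE, shared 84.2% of its words with other genes, most of them with the annotated pseudogene Olfr687. How Cufflinks divided reads within such pairs is not stated in the sources used here, and their levels are uncertain.

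The 54 members that shared no word had a median level of 0.802 FPKM in MOE (quartiles 0.412 and 1.40), the 29 that shared under 20% had 0.710, and the 38 that shared 20% or more had 0.353 (quartiles 0.122 and 0.631). Members with close relatives were thus listed at lower levels, and the part of read assignment in this was not tested. Only Olfr78 and Olfr560 had loci in mm9 that overlapped, and these overlapped each other.

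In MOE, class I genes ranged from 0 to 6.34 FPKM, with a median of 0.642 (quartiles 0.261 and 1.02). Of the 123 genes, 4 had a mean of 0, 13 lay above 0 and up to 0.1, 33 between 0.1 and 0.5, 40 between 0.5 and 1, 19 between 1 and 2, and 14 at 2 or above. The 10 highest genes together held 34.0% of the summed level of 111 FPKM, and 20 genes were enough to reach 50% of it. The other Olfr genes, mostly class II receptors, had nearly the same median (0.648 FPKM, 982 genes with a value) but a longer upper tail, with a highest mean of 48.6 FPKM. At a mean of at least 0.5 stood 59.3% of class I and 57.2% of other Olfr genes, and at a mean of at least 1 stood 26.8% and 37.1%.

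**Figure D1:**
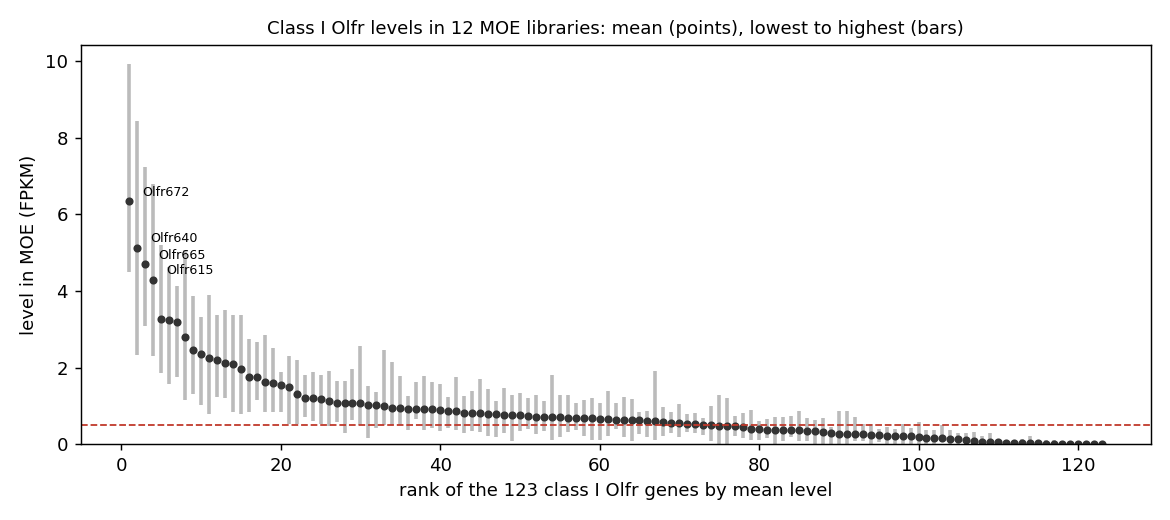
Level of the 123 class I Olfr genes in MOE (FPKM, linear axis) against their rank by mean level. Points are means of 12 libraries, grey bars run from the lowest to the highest library, and the dashed line marks the minimum mean of 0.5 FPKM for testing; Olfr672 stands highest at 6.34 FPKM and the curve falls below 0.5 after rank 73.

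Olfr672 (chr7:112144478-112145416) was the highest class I gene, with 4.49, 6.17 and 9.94 FPKM as the lowest, median and highest of the 12 MOE libraries. Olfr640 (chr7:111169886-111170830) had 2.34, 4.76 and 8.45, and Olfr665 (chr7:112029223-112030173) had 3.09, 4.52 and 7.23. Olfr615 (chr7:110708993-110709934) followed with 2.31, 4.02 and 6.81 FPKM. These 4 odorant receptor genes were among the 10 highest class I genes in 12 of 12 libraries, and their ranges overlapped, so that their order was not fixed across libraries. Olfr610 (3.28 ± 1.03), Olfr598 (3.24 ± 0.808) and Olfr549 (3.19 ± 0.698) were in the first 10 in 11 libraries each, and Olfr570 (2.80 ± 1.10) in 10. Olfr690 (2.45 ± 0.646) and Olfr599 (2.36 ± 0.774) were in the first 10 in 5 libraries each, and neighbours in this part of the order did not differ beyond their SD (n = 12).

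Several members have ligands or sites of expression that are well known. Olfr78, a receptor for short-chain fatty acids that is also found in blood vessels and the carotid body, had 0.389, 0.595 and 1.06 FPKM as the lowest, median and highest MOE library and ranked 62 of 123. Olfr558, a receptor for branched and short carboxylic acids, had 0.239, 0.508 and 0.678 (rank 73), and Olfr544, a receptor for azelaic acid, had 0.0909, 0.330 and 0.859 (rank 85). Olfr78, Olfr558 and Olfr544 were thus not among the highest of the cluster in MOE. Olfr690, which was chosen for naming together with them, went the other way, with a mean of 2.45 FPKM (rank 9 of 123). Just inside the minimum of 0.5 FPKM used for testing stood Olfr64 with 0.520 and Olfr558 with 0.508, and just outside stood Olfr683 with 0.492 and Olfr577 with 0.486.

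Olfr574, Olfr603, Olfr663 and Olfr688 were listed at 0 in all 12 MOE libraries, and Olfr574 and Olfr603 also in all VNO and OB libraries. At the other end of the counts, 87 members were above 0 in 12 of 12 MOE libraries and 109 in at least 6. A member value above 0, over the 3 tissues, rested on a median of only 6 estimated fragments, so that counting error is a large part of the spread. Among the 73 members at a mean of at least 0.5 FPKM, the median coefficient of variation within groups was 36.3%, against 30.7% from counting alone, and the median ratio of observed to counting variance was 1.65. It was above 2 for 27 of them. In spite of this, the order of levels was alike in all groups, with Spearman correlations over the 123 genes between 0.926 and 0.953 for the 6 pairs of groups, which share the length, mappability and annotation of each gene and are given as a description.

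Highly and weakly expressed members were intermingled along the cluster. The 72 members before the beta globin genes had a median of 0.635 FPKM, the 18 between the globin and Trim genes 0.567, and the 33 beyond the Trim genes 0.724. The 10 highest members fell in all of these segments, with 6, 1 and 3 of them. Olfr67, the nearest member before the globin genes at 20.7 kb, had 0.871 ± 0.265 FPKM (n = 12), and Olfr66, the nearest after them at 28.1 kb, had 0.223 ± 0.131. Over the 122 pairs of neighbours, the Spearman correlation of levels was -0.0452, given as a description, so that a high member told little about the one beside it. Trpc2, the channel gene of vomeronasal neurons that lies in the same interval, had 0.938 FPKM in MOE and 43.0 in VNO, the opposite of the class I genes.

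**Figure D2:**
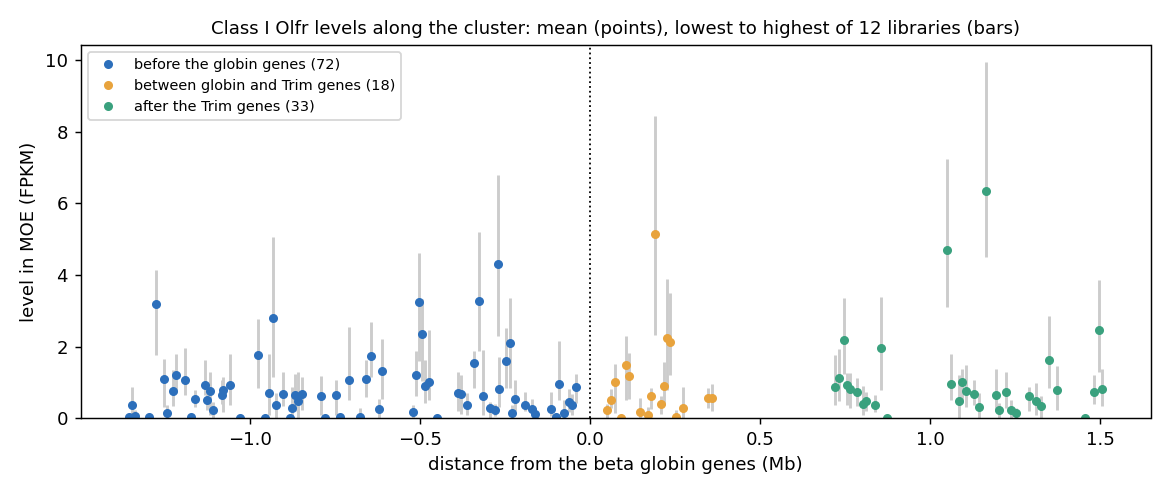
Level of each class I Olfr gene in MOE (FPKM, linear axis) against the distance of its locus from the beta globin genes in Mb (dotted line at 0). Points are means and bars run from the lowest to the highest of 12 libraries; the 72, 18 and 33 genes of the segments before the globin genes, between the globin and Trim genes and after the Trim genes are coloured apart, and each holds both high and low genes.

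The study housed mice apart or together to ask how experience of the other sex relates to gene expression in the olfactory tissues. In MOE, no class I gene passed an adjusted p of 0.05 in any of 5 comparisons with limma. The test covered 73 of the 123 members, those with a mean of at least 0.5 FPKM, among 13757 genes. Between SF and SM, 0 of 73 were called (0.102% of all genes tested were), and 4 were higher (1% of all genes) and 1 lower (3.15%) in SF at an unadjusted p under 0.05. In CF vs CM, 0 were called (0.0436% of all genes) and 1 was higher (1.5%) and 0 lower (0.247%) in CF at an unadjusted p under 0.05. For the interaction of sex and housing, 0 were called (0.0363%) and 1 was higher (0.407%) and 1 lower (4.19%). Between CF and SF, 0 were called (0.0509%) and 1 was higher (0.93%) and 4 lower (1.1%) in CF, and between CM and SM 0 were called (0.0654%) and 1 was higher (0.385%) and 1 lower (6.56%) in CM.

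The fitted log2 differences of the 73 members ranged from -0.58 to 0.67 between SF and SM, from -0.55 to 0.56 between CF and CM, from -0.82 to 0.94 for the interaction, from -0.65 to 0.67 between CF and SF and from -0.71 to 0.59 between CM and SM. The median log2 difference of the 73 genes was 0.10 between SF and SM, beside -0.02 over all genes tested, and 0.02 beside 0.10 between CF and CM. For the interaction the medians were 0.10 and -0.12, between CF and SF -0.07 and -0.06, and between CM and SM 0.01 and -0.17. Class I genes were higher in SF than in SM by their fitted difference in 47 of 73 cases (64.4%, against 45.1% of all genes), and the median 95% interval of a single gene reached 0.53 to each side on the log2 scale. Quantile normalization moved the median of all genes in CF vs CM from 0.10 to -0.01, in the interaction from -0.12 to 0.02 and in CM vs SM from -0.17 to 0.01, and under it the class I medians were 0.17, -0.07, 0.25, -0.07 and 0.14 in the order given, so that the sign of the CF vs CM median turned.

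The number of members at an unadjusted p under 0.05 changed with the scaling. Under quantile normalization, 8 were higher (8.26% of all genes) and 1 lower (6.61%) in SF than in SM, and 1 was higher (2.2%) and 5 lower (1.88%) in CF than in CM. For the interaction 6 were higher (6.49%) and 0 lower (5.24%), for CF vs SF 2 were higher (3.53%) and 6 lower (3.66%), and for CM vs SM 10 were higher (4.7%) and 1 lower (4.26%). None of these passed an adjusted p of 0.05 with limma.

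CM replicate 3 moved several of these values. It had the fewest estimated fragments on transcripts and the lowest summed receptor levels of the MOE libraries. The paper lists for it the most input read pairs of these libraries but the lowest share of reads aligned. Without this library, 75 members were tested and 0 were called by limma in the 5 comparisons. At an unadjusted p under 0.05, 13 were then higher (5.68% of all genes) and 0 lower (3.43%) in CM than in SM, beside 1 and 1 with the library. For the interaction 12 were higher (11.3%) and 0 lower (3.79%), and for CF vs CM 0 were higher (0.928%) and 9 lower (7.19%). For SF vs SM 6 were higher (5.42%) and 1 lower (5.97%), and for CF vs SF 3 were higher (1.64%) and 8 lower (6.68%). The class I median became -0.18 for CF vs CM (all genes -0.10), 0.28 for the interaction (0.08) and 0.19 for CM vs SM (0.02), so that the CF vs CM median turned from above to below 0 for the members and for all genes. All CF lay above both remaining CM libraries for 1 of the 75 members (4.8% of all genes) and below them for 17 (27.1%), and both CM lay above all SM for 23 (21.9%) and below them for 3 (14.1%).

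**Figure D3:**
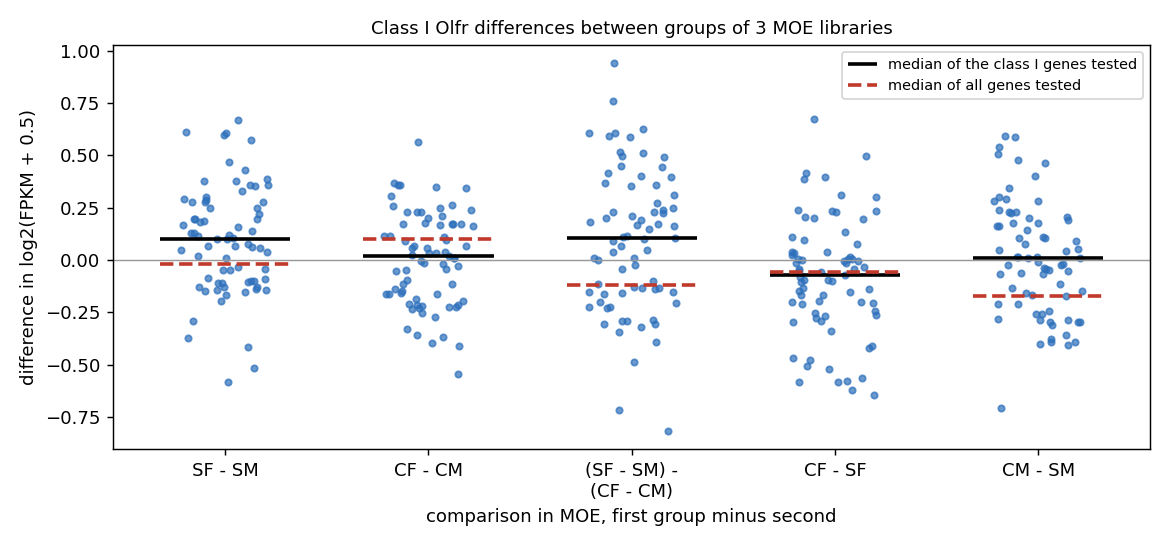
Difference in log2(FPKM + 0.5) of the 73 tested class I Olfr genes (blue points) in 5 comparisons of MOE groups, first group minus second. Black lines are the medians of these genes and dashed red lines the medians of all 13757 genes tested; between SF and SM the medians are 0.10 and -0.02, and no point passed an adjusted p of 0.05.

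The members with the smallest p between SF and SM were Olfr685, Olfr652 and Olfr620. Olfr685 had 1.87, 2.86 and 1.77 FPKM in SF and 0.958, 1.80 and 0.847 in SM libraries. The groups overlapped by 1 library, and the log2 difference was 0.67 (SE 0.22, limma adjusted p = 0.885). Olfr652 had 1.93, 0.958 and 1.01 FPKM in SF and 0.471, 0.843 and 0.748 in SM, so that all SF lay above all SM libraries, with a log2 difference of 0.57 (SE 0.21, limma adjusted p = 1). Olfr620 had 0.665, 0.460 and 0.193 in SF and 0.914, 0.687 and 1.06 in SM, so that all SF lay below all SM libraries, with a log2 difference of -0.58 (SE 0.24, limma adjusted p = 1). Of the 73 members, 2 had every SF library above every SM library (7.62% of all genes) and 1 had every SF library below (6.54%).

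Under the other comparisons the leading genes were partly the same ones. Between CM and SM, which shares the SM libraries with SF vs SM, Olfr620 had 0.513, 0.328 and 0.218 FPKM in CM, all below SM (log2 -0.71, SE 0.24, limma adjusted p = 0.667), and Olfr652 had 1.003, 1.34 and 1.49, all above SM (log2 0.59, SE 0.21, limma adjusted p = 0.699). Olfr617 had 2.52, 1.98 and 1.01 in CM and 0.843, 0.994 and 1.47 in SM, which overlapped. Between CF and CM, Olfr599 had 3.33, 3.09 and 3.29 FPKM in CF and 3.25, 1.70 and 1.46 in CM (log2 0.56, SE 0.25, limma adjusted p = 1). Olfr649 had 0.525, 0.597 and 0.205 in CF and 0.968, 0.743 and 0.522 in CM, and Olfr557 had 0.680, 0.662 and 0.683 in CF and 0.783, 1.63 and 0.784 in CM. Only the groups of Olfr557 among these 3 receptor genes did not overlap, with CF lower, and its adjusted p with limma was 1. Of the 73 members, CF stood apart from CM in 1 gene upward (3.82% of all genes) and in 1 downward (0.313%), CM from SM in 2 upward (0.327%) and 2 downward (13%), and CF from SF in 3 upward (2.15%) and 6 downward (8.26%). Without CM replicate 3, the log2 difference between CM and SM was -0.59 for Olfr620, 0.50 for Olfr652 and 0.79 for Olfr617, and that between CF and CM was 0.38 for Olfr599, -0.55 for Olfr649 and -0.49 for Olfr557.

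Olfr672, the highest member, had 9.94, 6.13 and 8.54 FPKM in SF, 6.40, 5.31 and 5.92 in SM, 4.98, 6.20 and 4.62 in CF, and 7.03, 6.52 and 4.49 in CM. SF replicates 1 and 3 stood above every other library, while SF replicate 2 lay within the range of the other groups. Its log2 difference between CF and SF was -0.58 (SE 0.20, limma adjusted p = 1), the smallest p among members in that comparison, followed by Olfr599 (log2 0.67, limma adjusted p = 1) and Olfr616 (log2 -0.62, limma adjusted p = 1). Olfr632 had the smallest p for the interaction, with 2.30, 1.38 and 2.03 in SF, 1.34, 0.518 and 1.498 in SM, 0.727, 1.31 and 1.73 in CF and 1.74, 2.02 and 1.24 in CM (log2 0.94, SE 0.37, limma adjusted p = 0.999, and log2 1.09 without CM replicate 3). Females exceeded males on average in the sex-separated and not in the sex-combined libraries, a difference that did not pass the threshold.

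The summed level of the cluster overlapped between the groups when all libraries were kept. It was 144, 90.8 and 126 FPKM in SF, 111, 98.7 and 106 in SM, 99.9, 117 and 104 in CF, and 137, 131 and 69.1 in CM. The mean was 120 ± 27.1 in SF, 105 ± 6.28 in SM, 107 ± 9.16 in CF and 112 ± 37.5 in CM (SD, n = 3 each), with wide overlap, and 134 in CM without replicate 3. CM replicates 1 and 2 stood above every SM and CF library, and CM replicate 3 stood below all other libraries. As a share of the summed FPKM of all Olfr genes, class I made up 8.24%, 8.14% and 7.67% in SF, 7.23%, 6.93% and 7.02% in SM, 7.02%, 7.57% and 7.65% in CF, and 7.73%, 7.55% and 7.27% in CM. All 3 SF shares were above all 3 SM and all 3 CF shares, and all 3 CM shares were above all 3 SM shares. The share is a sum over members chosen with earlier results known and was not tested. The summed level of the dorsal zone markers Nqo1 and Acsm4 was 157 to 228 FPKM in SF, 179 to 207 in SM, 166 to 193 in CF and 120 to 218 in CM. The CM range overlapped those of SM and CF only through CM replicate 3 (120 FPKM). CM replicates 1 and 2 had 211 and 218 FPKM, above every SM and CF library. The part of dorsal tissue in the sums and shares was not tested.

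**Figure D4:**
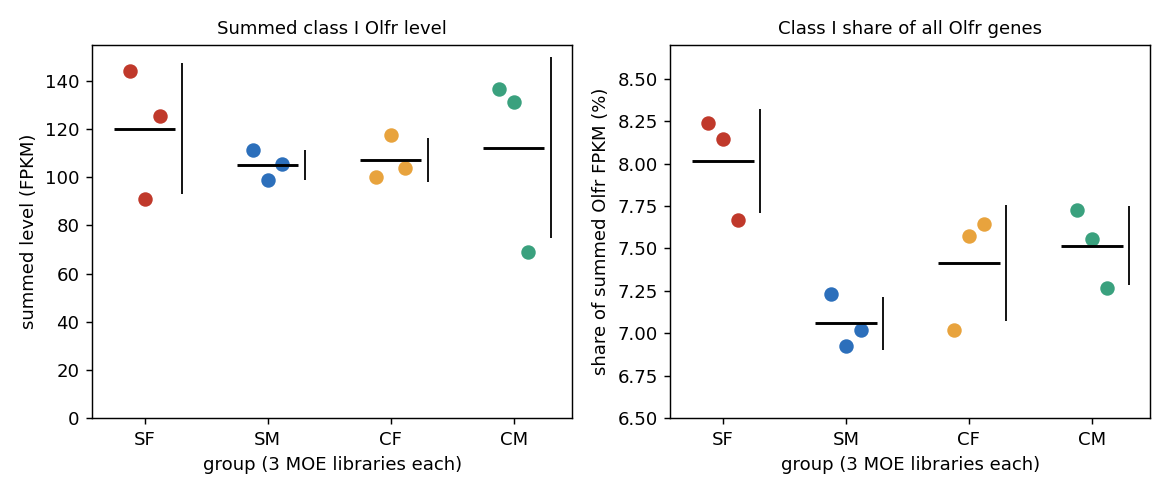
Summed level of the 123 class I Olfr genes (left, FPKM, axis from 0) and their share of the summed FPKM of all Olfr genes (right, percent, axis cut below 6.5) in the 12 MOE libraries by group. Points are libraries, horizontal lines the means of 3 and vertical lines the SD; the sums overlap between groups, and the SF shares (7.67% to 8.24%) lie above the SM shares (6.93% to 7.23%).

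No gene of the lists for transduction or for receptor choice and trafficking was called in the same comparisons. Of 13 transduction genes, which carry the odor signal from the receptor to the membrane channel, 0 were called by limma in any of the 5 MOE comparisons, and 0 had an unadjusted p under 0.05. Of 15 genes of receptor choice and trafficking, 0 were called, and 0 were higher (1% of all genes) and 2 lower (3.15%) in SF than in SM at an unadjusted p under 0.05, namely Atf5, a factor of the receptor feedback signal (log2 -0.74, limma adjusted p = 1), and Bcl11b, a factor that favours class II choice (log2 -0.37, limma adjusted p = 1). Atf5 was also below 0.05 for the interaction (log2 -0.86, limma unadjusted p = 0.0467, adjusted p = 0.999), where 4.19% of all genes were lower. The medians of the transduction and the choice genes were -0.12 and -0.16 between SF and SM, beside 0.10 for class I genes and -0.02 for the other 562 Olfr genes tested. Among those other Olfr genes, 1 was called between SF and SM (0.102% of all genes), and 25 were higher (1%) and 31 lower (3.15%) at an unadjusted p under 0.05. The 23 other tested genes of the interval had a median of 0.02 in that comparison, with 0 called.

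In VNO and OB, class I transcripts were present only as traces. The summed level was 1.63 ± 0.573 FPKM in VNO and 1.55 ± 0.345 in OB (SD, n = 12), which is 1.46% and 1.40% of the MOE sum. For comparison, the levels of Cnga2, the channel gene of olfactory neurons, were 1.02% and 0.282% of MOE, and those of Omp, which VNO neurons also express, were 10.3% and 3.57%. The other listed markers of olfactory neurons stood at 2.02% and 1.51% (Stoml3), 1.97% and 4.86% (Gnal), 5.97% and 4.92% (Adcy3) and 3.57% and 10.5% (Gng13). The summed level of the other Olfr genes was 2.13% and 1.36% of MOE. Of the 123 members, 76 were above 0 in at least 1 VNO library and 57 in at least 1 OB library, but only 2 and 0 were above 0 in all 12. The median member with at least 0.5 FPKM in MOE stood at 0.571% of its MOE level in VNO and 0.590% in OB. The part of RNA from MOE neurons in these traces was not tested.

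No member reached a mean of 0.5 FPKM in VNO or OB, so that comparisons within these tissues were made without the filter, on the 76 and 57 members above 0. With limma, 0 members were called in any of the 5 comparisons of each tissue. Of all genes, the share called in VNO was 0.0574% for SF vs SM, 0.0335% for CF vs CM, 0.00478% for the interaction, 0.00478% for CF vs SF and 0% for CM vs SM. In OB it was 0.0306%, 0.0357%, 0.0051%, 0.0051% and 0.0051% in the same order. At an unadjusted p under 0.05 in VNO stood 2 of 76 members for SF vs SM (7.97% of all genes), 2 for CF vs CM (4.1%), 1 for the interaction (4.98%), 6 for CF vs SF (9.18%) and 0 for CM vs SM (3.2%). In OB these were 3 of 57 (4.97%), 3 (5.52%), 1 (4.36%), 4 (3.46%) and 2 (3.79%), with member shares on both sides of those of all genes. Between MOE and VNO, 20 members passed the filter over the 36 libraries and 20 were called higher in MOE (48.6% of all genes were). These members passed the filter through their MOE level and had to differ. Without the filter, 111 of 121 were called higher in MOE with limma (38.4% of all genes) and 0 lower (32.1%).

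A few receptors stood out from these traces. In VNO, Olfr78 (chr7:109889235-109907985) had the highest mean, with 0.0706, 0.236 and 0.409 FPKM as the lowest, median and highest library, and it was above 0 in 12 of 12 libraries, from 95.7 estimated fragments in all. Olfr558 (chr7:109850837-109860568) had 0.0772, 0.194 and 0.240 FPKM and was also above 0 in 12 of 12, from 108 fragments. In OB, Olfr78 had 0.0120 ± 0.0161 FPKM (n = 12) and was above 0 in 5 libraries, and Olfr558 had 0.0687 ± 0.0484 and was above 0 in 11. These genes kept 34.3% and 34.2% of their MOE level in VNO, where the median tested member kept 0.571%. Both were higher in VNO than in OB in the fit without the filter, by 0.48 for Olfr78 (SE 0.07, limma adjusted p = 1.25e-06) and by 0.24 for Olfr558 (SE 0.06, limma adjusted p = 0.000339) on the log2(FPKM + 0.5) scale, where 35.4% of all genes were called higher. Both genes were also among those named for a high VNO level, so that this comparison used values that picked them. The markers of vascular smooth muscle (Acta2, Myh11, Tagln and Cnn1, 4 of 4 above 0 in each tissue) summed to 288 to 386 FPKM in VNO, 42.9 to 87.0 in MOE and 1.71 to 5.78 in OB, and their part in the 2 receptors' levels was not tested.

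Olfr653 (chr7:111728138-111729183), which had 1.23, 2.14 and 3.36 FPKM as the lowest, median and highest MOE library, was listed at 0 in all 12 OB libraries. In VNO it had 0.101, 0.140 and 0.208 FPKM in SF, 0, 0.298 and 0.0749 in SM, 0.319, 0.622 and 0.217 in CF and 0, 0.0665 and 0 in CM. All CF lay above all CM libraries, from at most 9 fragments each. The difference was not called without the filter (limma adjusted p = 0.674). Of the 20 members that passed the filter through their MOE level, Olfr653 was called between VNO and OB (limma adjusted p = 0.000739), 1 of 20 against 37.8% of all genes called higher in VNO. Olfr653 was named for its VNO level, so that this comparison used values that picked it and gives no separate support. Olfr78 and Olfr558 did not pass that filter and were tested only without it. Because Olfr653 was listed at 0 in OB, its fitted log2 difference depends on the pseudocount, being 0.38 with 0.5 and 1.17 with 0.1. Without MOE CM replicate 2 the members called numbered 2, and without MOE CM replicate 3 they numbered 3. The joint fit takes the spread of a gene from all 36 libraries, MOE included, so that leaving out an MOE library changes the SE of VNO vs OB. For Olfr690 the log2 difference was -0.167 in both cases, and the SE was 0.0785 and 0.0566. Olfr655, the neighbour of Olfr653 at chr7:111744767-111745693, had 0.0628 ± 0.0665 FPKM in VNO (n = 12) and was also listed at 0 in OB.

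In OB, the highest means belonged to Olfr543 and Olfr544, neighbours at the end of the cluster. Olfr543 (chr7:109625287-109626416) had 0.446, 0.376 and 0.256 FPKM in SF, 0, 0.0630 and 0.232 in SM, 0.0742, 0.0656 and 0.224 in CF, and 0.120, 0 and 0.0599 in CM. All SF lay above all SM libraries. The log2 difference without the filter was 0.53 (SE 0.15, limma adjusted p = 0.886). Its mean in OB was 0.160 FPKM, from 31.0 fragments in all, in VNO 0.0856 and in MOE 0.0391, so that it was listed higher in OB than in the epithelium. In MOE it had at most 1 fragment in a library, below the floor of 3. Olfr544 (chr7:109632628-109636821) had 0.125 ± 0.0924 FPKM in OB, above 0 in 9 of 12 libraries, and was above 0 in 1 VNO library. No OB library held more than 3 of its fragments, which is the floor. Olfr545, which shares 38.5% of its words with Olfr544, had 0.0772 ± 0.0545 FPKM in OB and 0.0523 ± 0.0734 in MOE. Olfr545, Olfr544 and Olfr543 were lower in VNO than in OB without the filter, by -0.18, -0.28 and -0.15 on the log2 scale (limma adjusted p = 0.00685, 0.0138 and 0.0444, where 36.5% of all genes were called lower). These genes were named for their OB level, so that the comparison used the values that picked them and gives no separate support. Olfr545 had 1 fragment in VNO CM replicate 3 and 0 in the other VNO libraries. In OB it had at most 2 fragments in a library, below the floor of 3.

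Olfr690 (0.0842 ± 0.0794 FPKM), Olfr640 (0.0811 ± 0.111) and Olfr691 (0.0809 ± 0.0633) followed in OB, each above 0 in 8 or 9 libraries. Olfr690 had 0.243, 0.144 and 0.161 in CF and 0.0650, 0 and 0 in CM. All CF lay above all CM libraries, from at most 3 fragments each. The difference was not called without the filter (limma adjusted p = 0.625). Apart from Olfr543, a mean above that in MOE was found for Olfr564 and Olfr663 in VNO and for Olfr545 and Olfr688 in OB. Olfr564, Olfr663 and Olfr688 rested on 2, 1 and 1 fragments there, below the floor of 3 fragments. Olfr545 had at most 2 fragments in any MOE or OB library, so that each of its values was also below that floor.

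**Figure D5:**
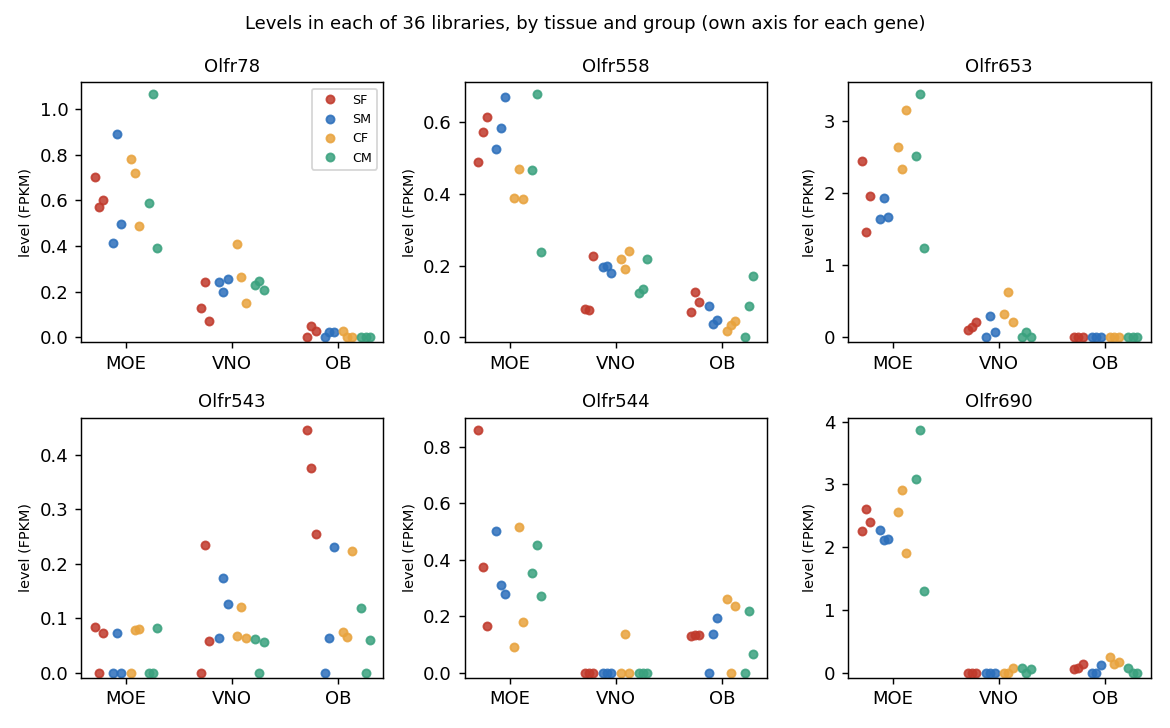
Levels (FPKM, linear axis with its own scale for each gene) of Olfr78, Olfr558, Olfr653, Olfr543, Olfr544 and Olfr690 in the 36 libraries, by tissue and coloured by group. Each point is a library; Olfr78 and Olfr558 are above 0 in all 12 VNO libraries, Olfr653 is at 0 in all OB libraries, and Olfr543 is highest in OB.

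Promoter windows of RefSeq in the build GRCm38.p6 were searched, and those of Olfr558, Olfr544, Olfr653 and Olfr543 are shown because these receptors stood out in VNO or OB. Olfr78 had no entry, and the window of Olfr690 held no match to the letters searched and is not shown. A window holds 250 bases before and 50 after the annotated start, and 106 of 123 members matched an entry. For 79 of these the annotated start was the start codon, so that the window holds coding sequence and not the true promoter. The 4 windows shown were among the other 27. The letters searched on both strands were CCCNNGGG, the core of the site of Ebf factors, TAATTA and TAATTG, which homeodomain factors such as Lhx2 and Emx2 bind, and TATAAA. Capitals mark matches to any of these. Olfr558 (chr7:102702073-102702372, plus strand) and Olfr543 (chr7:102477853-102478152, minus strand) held none of them. Olfr544 (chr7:102488258-102488557, minus strand) held TAATTG at bases 154 to 159, and Olfr653 (chr7:104579374-104579673, plus strand) held it on the other strand at bases 125 to 130.
Olfr558: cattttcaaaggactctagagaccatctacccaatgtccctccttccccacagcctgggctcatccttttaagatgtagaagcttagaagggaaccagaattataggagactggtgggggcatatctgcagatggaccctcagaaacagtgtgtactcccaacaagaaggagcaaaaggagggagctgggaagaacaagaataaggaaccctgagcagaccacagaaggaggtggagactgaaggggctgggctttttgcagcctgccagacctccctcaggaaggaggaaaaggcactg
Olfr544: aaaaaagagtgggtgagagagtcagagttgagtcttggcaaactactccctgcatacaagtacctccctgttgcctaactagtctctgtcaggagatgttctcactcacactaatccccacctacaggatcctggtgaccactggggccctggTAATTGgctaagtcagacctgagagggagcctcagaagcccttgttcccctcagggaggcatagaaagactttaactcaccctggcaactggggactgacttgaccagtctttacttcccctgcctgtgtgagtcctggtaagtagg
Olfr653: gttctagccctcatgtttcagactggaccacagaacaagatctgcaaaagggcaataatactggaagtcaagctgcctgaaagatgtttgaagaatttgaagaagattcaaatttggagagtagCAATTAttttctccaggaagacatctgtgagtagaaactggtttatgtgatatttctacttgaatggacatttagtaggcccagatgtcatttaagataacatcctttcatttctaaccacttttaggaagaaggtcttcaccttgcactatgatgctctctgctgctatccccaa
Olfr543: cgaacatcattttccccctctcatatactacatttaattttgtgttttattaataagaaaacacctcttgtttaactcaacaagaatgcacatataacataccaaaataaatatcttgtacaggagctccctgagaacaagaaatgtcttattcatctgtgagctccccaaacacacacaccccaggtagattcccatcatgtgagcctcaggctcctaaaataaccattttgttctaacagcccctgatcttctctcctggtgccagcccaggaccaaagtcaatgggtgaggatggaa
Over the 106 windows, TAATTG was found in 20.8%, TAATTA in 13.2%, TATAAA in 40.6% and CCCNNGGG in 2.83%. Over the 838 windows of other Olfr genes the shares were 23.5%, 19.3%, 41.3% and 3.10%, and over all 32851 windows 8.0%, 5.29%, 13.6% and 13.7%. A match is a description of letters and not a binding site.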

How the data were processed

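Per the labels, total RNA depleted of ribosomal RNA was prepared with a stranded kit and sequenced in pairs, and the submitters' processing notes name TopHat2 2.1.0, Cufflinks 2.2.1.0, Cuffdiff and the build mm9. The authors deposited FPKM values with 95% confidence limits for each RefSeq transcript locus, library by library, in 40150 entries for MOE and 40008 for VNO and OB. How reads from near-identical genes were divided is not given in the sources used here. Values were not rescaled.

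Entries were named by RefSeq accession (99.7% matched), summed by symbol, and genes with an entry not marked OK were left out (5 genes for MOE and 1 each for VNO and OB). The fragment number behind a value was taken as (FPKM/SE) squared, with the SE from the confidence limits, and 81.7% of the member values above 0 came within 0.05 of a whole number. The floor was 3 fragments. Intervals and floors cover counting error only, since reads from PCR are not independent molecules. The lowest and highest library totals were 3015430 and 5866060 fragments for MOE, 3372280 and 6430720 for VNO, and 3250830 and 6007190 for OB.

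Linear models of log2(FPKM + 0.5) were fitted by lmFit and eBayes (trend on) of limma 3.58.1, R 4.3.3. Each tissue had its own fit of 12 libraries in 4 groups, for genes with a mean of at least 0.5 FPKM, and tissues were compared in a joint fit of 36 libraries. The joint fit treated the libraries as independent, although the tissues came from the same mice. Whether pools of the same number held the same mice in each tissue is not stated. The log2 scale with a pseudocount understates the change of low genes. Adjustment of p-values was by Benjamini and Hochberg across every gene in a fit, with a threshold of 0.05. They measure the spread between pools. The script was tested on simulated data. Alternatives were pseudocounts of 0.1 and 1, no filter, quantile normalization, scaling to the summed Olfr FPKM, a replicate block, fits to the 6 libraries of a comparison, and omission of each library. Replicate numbers met the criterion for pairs (every correlation of deviations over 0.1) for SF with SM (0.127 to 0.202) and SF with CF (0.1005 to 0.273) in VNO, from the data and not the labels, and in no other comparison. Cuffdiff was not rerun because it reads alignments.

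The members, gene lists and tests were chosen with earlier results of these data known. Genes named were the 10 highest in MOE, the 3 with the smallest p in each MOE comparison, the 5 highest in VNO and in OB, those with a mean above MOE in VNO or OB, Olfr78, Olfr558, Olfr544 and Olfr690, members at 0 in all libraries, members at the ends of the interval and nearest to the globin genes, and the most similar pairs. Pairs were compared by coding bases of GENCODE M21 transcripts (longest reading frame) because no protein table was used here. Olfr64, Olfr683 and Olfr577 were named as those nearest to the minimum, and Olfr560 as the locus overlapping Olfr78. Lists were written for transduction, choice and trafficking, other Olfr genes, neighbours in the interval, and markers of olfactory, vomeronasal and bulb neurons, blood, vascular smooth muscle and the dorsal and ventral zones. Promoter windows came from RefSeq. Python 3.11.15, pandas 2.3.3, numpy 2.4.6, scipy 1.17.1 and matplotlib 3.10.9 were used.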

Additional observations from a re-analysis of the deposited data

How the results depend on the processing

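With the alternatives, 0 class I genes were called by limma in any of the 15 comparisons within a tissue, whether with a pseudocount of 0.1 or 1, no filter, quantile normalization, a replicate block, only the 6 libraries compared or, in MOE, scaling to the summed Olfr FPKM, and the range with each library left out was 0 to 0. For the 15 named differences in MOE, 282 values under alternatives gave 0 reversed signs and 0 calls, with a smallest adjusted p of 0.194 in limma. With a library left out, these differences ranged from 0.34 to 0.70 for Olfr652 and -0.76 to -0.38 for Olfr620 in SF vs SM, 0.38 to 0.85 for Olfr599, -0.55 to -0.21 for Olfr649 and -0.49 to -0.13 for Olfr557 in CF vs CM, 0.37 to 0.90 for Olfr599 and -0.84 to -0.36 for Olfr616 in CF vs SF, and 0.29 to 0.79 for Olfr617 in CM vs SM. The counts at an unadjusted p under 0.05 given above for quantile normalization and without MOE CM replicate 3 differed from the main counts, and the cause was not tested.

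Between MOE and VNO, 20 members were called, 18 to 21 with a library left out, and 111 without the filter, since 121 instead of 20 were then tested. Between VNO and OB, 1 of 20 members was called (37.8% of all genes were called higher in VNO). The count was 5 with a pseudocount of 0.1, 5 with quantile normalization, and 1 to 3 when a library was left out. Without the filter it was 6 of 121, where 35.4% of all genes were called higher and 36.5% lower in VNO. The 4 members added by the pseudocount or quantile normalization were Olfr566, Olfr598, Olfr640 and Olfr690, all lower in VNO. These also passed the filter through their MOE level and had at most 5 fragments in any VNO or OB library. Without MOE CM replicate 2, 2 members were called (Olfr690 added), and without MOE CM replicate 3, 3 (Olfr640 and Olfr690 added). The summed class I level in MOE moved by less than the spread between replicates when zeros were set at 3 fragments (117 against 112 FPKM in CM), or when a library was left out (108 to 135 in SF, 102 to 108 in SM, 102 to 111 in CF, 100.1 to 134 in CM). The class I share was 7.90% to 8.19% in SF, 6.97% to 7.12% in SM, 7.30% to 7.61% in CF and 7.41% to 7.64% in CM with a library left out.

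Of 18 pairs of same-numbered libraries in a tissue, the correlation of deviations was over 0.1 in 3 in MOE, 8 in VNO and 2 in OB, and 7, 10 and 3 of 12 libraries correlated best with their own number. With the replicate block, 0 members were called by limma in the comparisons within a tissue, 20 between MOE and VNO and 1 between VNO and OB. With the block and no filter, an alternative chosen after seeing the data, 0 of 76 members in VNO and 0 of 57 in OB were called. The median 95% interval of a tested member in MOE reached 0.53 to each side on the log2 scale before adjustment, and differences of up to 0.94 did not pass the adjusted threshold.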
